A study of Mus musculus with 4 samples.

Results

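The cells described here are single cells of the neural stem cell (NSC) line CN4 that were captured with a read of *Dbx2* or of *Nkx2-2*, but not of both. Among 18157 CN4 cells, 3839 cells had at least 1 read of *Dbx2* and none of *Nkx2-2* (21.1%, exact 95% interval 20.6% to 21.7%), and they are called Dbx2-only cells. Another 1659 cells had at least 1 read of *Nkx2-2* and none of *Dbx2* (9.14%, 8.72% to 9.57%), and they are called Nkx2-2-only cells. The remaining cells were 672 with reads of both genes and 11987 with reads of neither. The groups were thus selected on the measured reads of *Dbx2* and *Nkx2-2* themselves, and these genes are left out of the comparison. All intervals in the text are exact (Clopper-Pearson for fractions, Poisson for counts of cells) and cover counting error only.

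CN4 is a mouse NSC line of the 129/Sv strain that was derived from epiblast stem cells, and the labels also call it C4D. Its medium held the growth factors EGF and FGF2, each at 10 ng/ml, together with CHIR99021 at 2 µM, a GSK3 inhibitor that activates Wnt signaling, and growing cells were dissociated with Accutase and kept in a preservative before loading. Of the other NSC lines in the series, XN1 and XN4 received the same growth factors with 10 µM XAV939, a Wnt signaling inhibitor, instead of CHIR99021. The authors report that the XAV939 used for XN1 formed precipitates, unlike that used for XN4, and infer a lower effective concentration. Each line was sequenced as 1 BD Rhapsody library (a microwell method with barcoded beads), so cells are not replicates and no test or p-value is given.

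*Dbx2* and *Nkx2-2* both encode homeodomain transcription factors that mark separate progenitor zones along the dorsoventral axis of the embryonic spinal cord. *Dbx2* belongs to the intermediate zone, whereas *Nkx2-2* is turned on by high Sonic hedgehog signaling in the ventral zone next to the floor plate, and later also marks cells of the oligodendrocyte lineage. *Olig2* belongs to the motor neuron progenitor zone and to oligodendrocyte precursors, the floor plate is marked by *Foxa2* and *Shh*, and Hox genes record the position along the anteroposterior axis.

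Membership rested on few reads. The gene that defined the group was present as a single read in 53.5% of the Dbx2-only cells and in 70.3% of the Nkx2-2-only cells, and the highest value was 11 reads of *Dbx2* and 8 reads of *Nkx2-2*. A cell without a read may thus have carried the transcript undetected. *Dbx2* was captured in 24.8% of CN4 cells, in 3.0% of 14452 XN1 cells, and in 8 of 8741 XN4 cells (0.0915%). *Nkx2-2* was captured in 12.8% of CN4 cells, in 12.5% of XN1 cells, and in 5 XN4 cells (0.0572%), although the median depth of XN4 (12615 reads) was above that of CN4 (9173 reads). Capture of either gene in CN4 was thus far above the fraction of cells with a read in XN4.

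Both groups were alike in depth and expressed NSC genes. The medians were 9986 reads and 3255 genes in the Dbx2-only cells and 10012 reads and 3270 genes in the Nkx2-2-only cells, against 8669 reads in the cells with neither gene. The median fraction of mitochondrial reads was 14.7% and 13.9%, and that of ribosomal protein reads was 6.50% and 6.98%, respectively. To compare other genes at the same depth, each cell was thinned at random to 3600 reads, which left 3804 Dbx2-only cells and 1628 Nkx2-2-only cells. In the thinned cells, *Fabp7*, a radial glial gene, was captured in 98.6% and 97.5%, *Sox2* in 71.8% and 66.3%, *Nes* in 61.8% and 63.6%, and *Olig2* in 76.1% and 82.9% of the cells. Among the NSC genes, *Hes5* (17.1% and 10.9%) and *Sox3* (30.9% and 38.1%) differed more. Microglial and endothelial markers were captured in at most 1.04% of the cells of either group (the highest was *Cx3cr1*), and *Aif1* was in none. Between the tables of CN4 and XN1, 320 cell names were shared, and between those of CN4 and XN4, 169. Of the cells whose names were shared, 102 were Dbx2-only and 48 Nkx2-2-only cells. *Nkx2-2* (chr2:147177546-147194243, minus strand) overlaps its antisense gene *Nkx2-2os*, whose reads may be shared with it.

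*Dbx2* and *Nkx2-2* did not avoid each other in CN4. Given the fraction of cells with each gene in 20 strata of like depth, 622.7 cells with both were expected, and 672 were observed, a ratio of 1.08 (0.999 to 1.16). With at least 2 reads required of each gene, the ratio was 1.30 (1.08 to 1.55). In XN1, 66 cells had both against 60.3 expected, a ratio of 1.09 (0.846 to 1.39).

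A gene was counted as measured when it was captured in at least 2% of all thinned CN4 cells, which gave 10093 genes. Between both groups, 117 genes (1.16% of those measured) were captured in a fraction at least 1.5-fold higher in Dbx2-only cells, with the pooled reads per group (RPM, scaled to the same total) pointing the same way, and 65 genes (0.644%) in a fraction at least 1.5-fold higher in Nkx2-2-only cells, 182 in all (1.8%). In the draw used, at least 2-fold differences were found for 12 and 1 genes, respectively. Many calls rested on which reads were drawn: another random draw gave 112 and 69 genes past 1.5-fold, of which 47 and 28 were shared with the first. When the chance of capture was averaged over all possible draws, 66 and 31 genes passed, of which 48 and 24 were shared. The averaged ratio is therefore given beside the named genes where it falls below 1.5-fold.

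**Figure D1:**
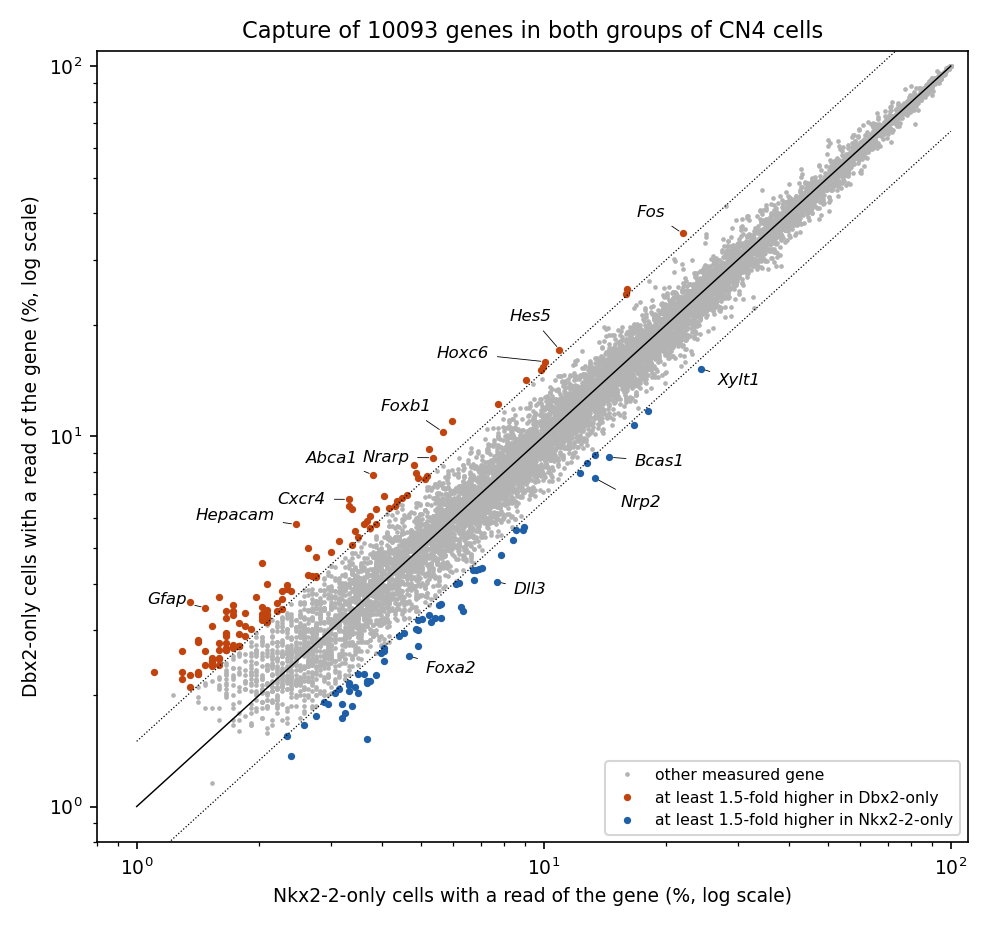
Fraction of Nkx2-2-only cells (horizontal) and Dbx2-only cells (vertical) with a read of each of 10093 measured genes after thinning, in percent on log scales; dots are genes, the solid line marks equal fractions, and dotted lines mark 1.5-fold. Most genes lie along the solid line, with *Abca1*, *Cxcr4*, *Foxb1*, and *Fos* on the Dbx2-only side and *Nrp2*, *Bcas1*, *Xylt1*, and *Dll3* on the Nkx2-2-only side.

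On the Dbx2-only side, among genes captured in at least 5% of CN4 cells, the highest ratios in the draw used belonged to *Abca1*, *Cxcr4*, *Pdk1*, *AI464131*, and *Foxb1*. Averaged over draws, *Pdk1* (1.41) and *AI464131* (1.59) were below *Tst* (1.90), *Fosb* (1.86), and *Dusp1* (1.77). *Abca1*, encoding a transporter for cholesterol efflux, was captured in 7.86% of Dbx2-only cells (7.02% to 8.76%) and 3.81% of Nkx2-2-only cells (2.93% to 4.86%). The ratio was 2.06, and the cells with neither gene were in between at 6.26%. *Cxcr4*, encoding the receptor of the chemokine Cxcl12, was captured in 6.76% (5.98% to 7.60%) against 3.32% (2.5% to 4.31%), a ratio of 2.04. In the cells with neither gene, *Cxcr4* was at 6.84%, and thus the Nkx2-2-only cells were the group that stood lower. This was common on this side. For 88 of the 117 genes, the cells with neither gene were nearer to the Dbx2-only cells, and for 29 they were nearer to the Nkx2-2-only cells.

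*Foxb1*, which encodes a forkhead transcription factor of the developing spinal cord and hypothalamus, was captured in 10.3% of Dbx2-only cells (9.33% to 11.3%), 5.65% of Nkx2-2-only cells (4.58% to 6.89%), and 7.93% of cells with neither gene. It overlaps the noncoding gene *B230323A14Rik*. *Tst*, encoding the mitochondrial enzyme thiosulfate sulfurtransferase, was captured in 8.39% against 4.79%, a ratio of 1.75. Other genes of this side were *Pdk1*, encoding a kinase that restrains pyruvate oxidation (1.95, but 1.41 when averaged), *AI464131* (1.85), the immediate early genes *Dusp1* (1.77) and *Fosb* (1.70), the Notch feedback gene *Nrarp* (1.64), the potassium channel gene *Kcnn2* (1.64), and *Fam20c*, encoding a secretory pathway kinase (1.63, but 1.30 when averaged). *Kcnn2*, *Dusp1*, and *Nrarp* overlap other annotated genes, and reads of overlapping genes may be shared.

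On the Nkx2-2-only side, among genes captured in at least 5% of CN4 cells, the highest ratios in the draw used belonged to *Nrp2*, *Bcas1*, *Kcnd2*, and *Xylt1*. Averaged over draws, *Sox13* (1.66-fold) and *Bmp7* (1.58-fold) were above *Xylt1* (1.55-fold) and *Kcnd2* (1.54-fold). *Nrp2*, encoding a coreceptor of semaphorins, was captured in 7.70% of Dbx2-only cells (6.87% to 8.6%) and 13.4% of Nkx2-2-only cells (11.8% to 15.1%), 1.74-fold higher in the latter. *Bcas1*, known from oligodendrocytes that begin to myelinate, was captured in 8.78% (7.90% to 9.72%) against 14.5% (12.8% to 16.3%), a 1.65-fold difference. *Xylt1*, encoding the enzyme that starts glycosaminoglycan chains on proteoglycans, was captured in 15.2% (14.1% to 16.4%) against 24.4% (22.3% to 26.5%). The cells with neither gene had 9.41%, 9.25%, and 15.3% for these genes and were nearer to the Dbx2-only cells. The same held for 51 of the 65 genes of this side, whereas 14 were nearer to the Nkx2-2-only cells.

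*Kcnd2*, encoding a potassium channel subunit, was 1.64-fold higher in Nkx2-2-only cells (7.86% against 4.78%). *Col18a1*, encoding a basement membrane collagen, was 1.60-fold higher (8.42% against 5.26%), and *Sox13*, encoding a SoxD factor, 1.58-fold higher (8.97% against 5.68%). *Bmp7*, encoding a ligand of the BMP pathway, was captured in 12.3% of Nkx2-2-only cells (10.7% to 14%), 7.94% of Dbx2-only cells (7.10% to 8.84%), and 7.28% of cells with neither gene. *Bend3* (1.60-fold, 1.47 when averaged), *Cdr2* (1.59, 1.4 when averaged), *Pqlc1* (1.58, 1.32 when averaged), *Trp53i11* (1.55), and *Phlda1* (1.54, 1.497 when averaged) completed this side. With averaging over draws, 9 of the 12 genes named for Dbx2-only cells and 8 of the 12 named for Nkx2-2-only cells were past 1.5-fold. Without thinning, in 1659 cells of each group matched by depth, 9 of the 12 and 2 of the 12 were at least 1.5-fold apart, and on the Nkx2-2-only side those were *Kcnd2* (1.57-fold) and *Sox13* (1.58-fold), with *Nrp2* at 1.49-fold, *Xylt1* at 1.43-fold, and *Bcas1* at 1.42-fold. That match gave 121 and 86 genes past 1.5-fold, of which 32 and 9 were shared with the 117 and 65.

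**Figure D2:**
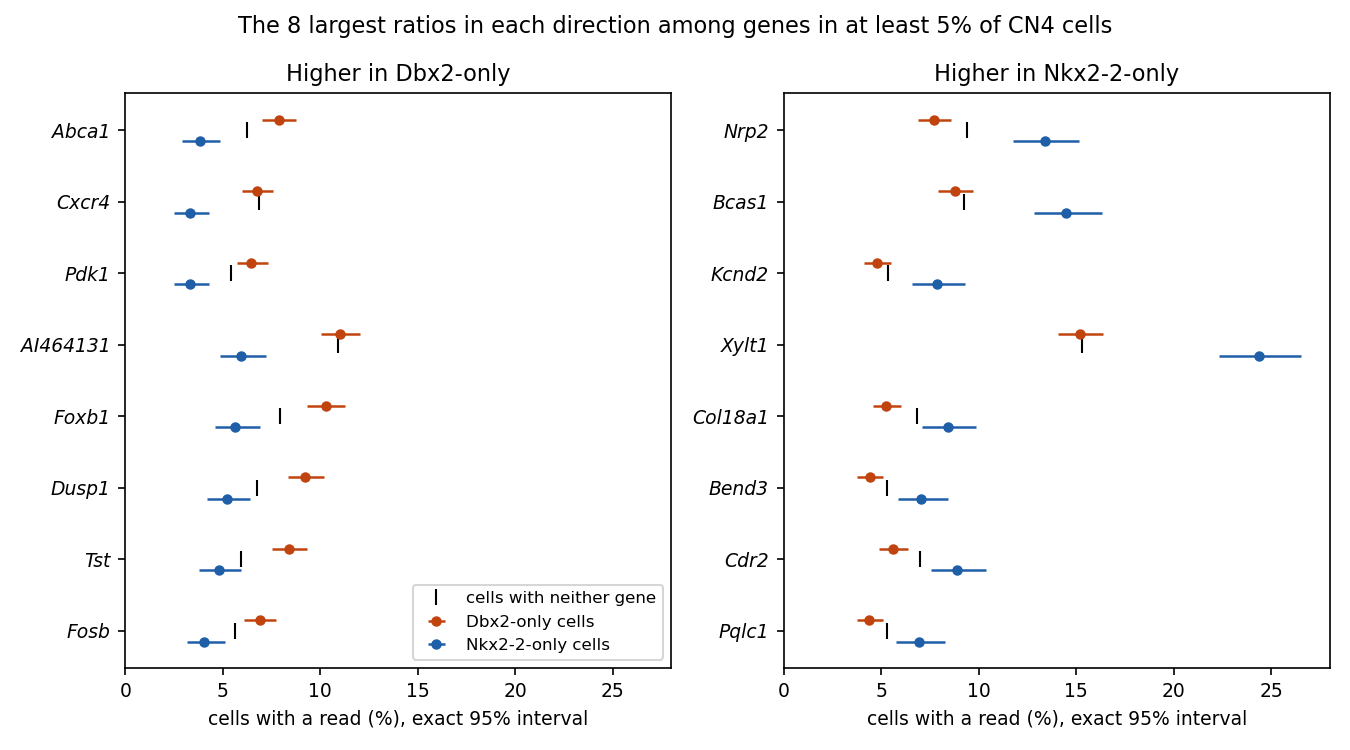
Percent of cells with a read of each gene in Dbx2-only cells (orange) and Nkx2-2-only cells (blue) after thinning, with exact 95% intervals; black ticks are cells with neither gene. Among genes captured in at least 5% of CN4 cells, the left panel holds the 8 genes with the largest ratio toward Dbx2-only cells and the right panel the 8 toward Nkx2-2-only cells, where *Xylt1* spans 15.2% to 24.4%.

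Some ventral and oligodendrocyte lineage genes were more often captured in Nkx2-2-only cells. Of 9 ventral neural tube factors, *Foxa2* and *Olig2* were measured, and *Foxa2* passed 1.5-fold, as did 0.644% of all measured genes. *Foxa2*, encoding a forkhead factor of the floor plate, was captured in 2.55% of Dbx2-only cells (2.07% to 3.10%) and 4.67% of Nkx2-2-only cells (3.70% to 5.81%), 1.83-fold higher in the latter. *Olig2* differed by 1.09-fold, with 76.1% against 82.9%. With 76.1% in Dbx2-only cells, no fraction of Nkx2-2-only cells could be 1.5-fold higher, and the same limit holds for other genes captured this often. By pooled RPM, the ratio of *Olig2*, Dbx2-only over Nkx2-2-only, was 0.828. *Shh*, encoding the ligand Sonic hedgehog, did not pass the 2% filter. It was captured in 29 of 3804 Dbx2-only cells (0.762%, 0.511% to 1.09%) and 46 of 1628 Nkx2-2-only cells (2.83%, 2.08% to 3.75%). *Nkx2-1*, *Nkx2-9*, *Nkx6-1*, *Nkx6-2*, *Foxa1*, and *Sim1* had reads in at most 3 cells of either group.

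Of 24 oligodendrocyte lineage genes, 11 were measured, and 9 of the 11 were captured in a higher fraction of Nkx2-2-only cells, as were 5465 of all 10093 measured genes. The median log2 ratio, Dbx2-only over Nkx2-2-only, was −0.18 against −0.01 for all measured genes. Of these, 3 reached 1.5-fold (0.644% of all measured genes did), among them *Bcas1* and *Dll3*. *Dll3*, encoding a Notch ligand-like protein, was at 4.05% (3.44% to 4.72%) against 7.68% (6.43% to 9.08%). *Lhfpl3* was at 15.5% against 21.7%, *Sox8* at 32.2% against 36.4%, and *Cnp* at 12.4% against 14%. *Sirt2* was at 19.9% against 18.6%.

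Below the 2% filter, some genes of this lineage differed more and others did not. *Sox10*, encoding a transcription factor of the lineage, was captured in 33 Dbx2-only cells (0.868%, 0.598% to 1.22%) and 44 Nkx2-2-only cells (2.70%, 1.97% to 3.61%). *Myt1*, encoding a zinc finger factor of the lineage, was captured in 32 (0.841%, 0.576% to 1.19%) and 66 cells (4.05%, 3.15% to 5.13%), a 4.82-fold difference. *Omg* was at 0.736% against 1.90%. *Pdgfra* and *Cspg4*, which define oligodendrocyte precursors, were rare in both groups, with 0.920% against 1.41% and 0.315% against 0.553%, and *Gpr17* had a read in 1 cell.

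*Shh* and *Foxa2* were often captured in the same cells, as were *Sox10* and *Myt1*. Over all CN4 cells, *Shh* and *Foxa2* were captured together in 214 cells, 6.72 times the number expected at like depth (5.85 to 7.68). *Sox10* and *Myt1* were captured together in 91 cells, 6.97 times the number expected (5.62 to 8.56), and *Sox10* with *Dll3* in 183 cells, 5.12 times that number (4.41 to 5.92). Across the gene groups, *Sox10* and *Shh* shared 1 cell against 7.17 expected (0.139, 0.00353 to 0.777), and *Sox10* and *Foxa2* shared 7 against 16.4 (0.427, 0.172 to 0.881). *Myt1* and *Shh* shared 6 against 9.02, a ratio of 0.665 with an interval that included 1 (0.244 to 1.45). In all, 19 CN4 cells had a read from each pair. These pairs were chosen after the values above were seen.

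Reads of either pair were more frequent among Nkx2-2-only cells. After thinning, 104 Nkx2-2-only cells (6.39%, 5.25% to 7.69%) had a read of *Shh* or *Foxa2*, against 117 Dbx2-only cells (3.08%, 2.55% to 3.67%). A read of *Sox10* or *Myt1* was present in 95 Nkx2-2-only cells (5.84%, 4.75% to 7.09%) against 61 Dbx2-only cells (1.60%, 1.23% to 2.06%). A read from each pair was present in 2 thinned Dbx2-only cells and in no thinned Nkx2-2-only cell. By the limit of 3 cells set for a count of 0, this allows a fraction of up to 0.184% (exact 95% upper limit 0.226%). Together, 12.2% of Nkx2-2-only cells and 4.63% of Dbx2-only cells had a read of any of these 4 genes, so most cells of both groups had none. In the cells with both *Dbx2* and *Nkx2-2*, *Shh* was at 1.35% (0.617% to 2.54%), *Foxa2* at 3.29%, *Sox10* at 1.64%, and *Myt1* at 1.49%.

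Without the cells that had a read of *Sox10*, *Shh*, or *Foxa2*, 126 and 66 genes passed 1.5-fold, of which 55 and 19 were shared with the 117 and 65. Another random draw with no such cells left out shared 47 and 28. A read of *Myt1* was no reason to leave out a cell.

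**Figure D3:**
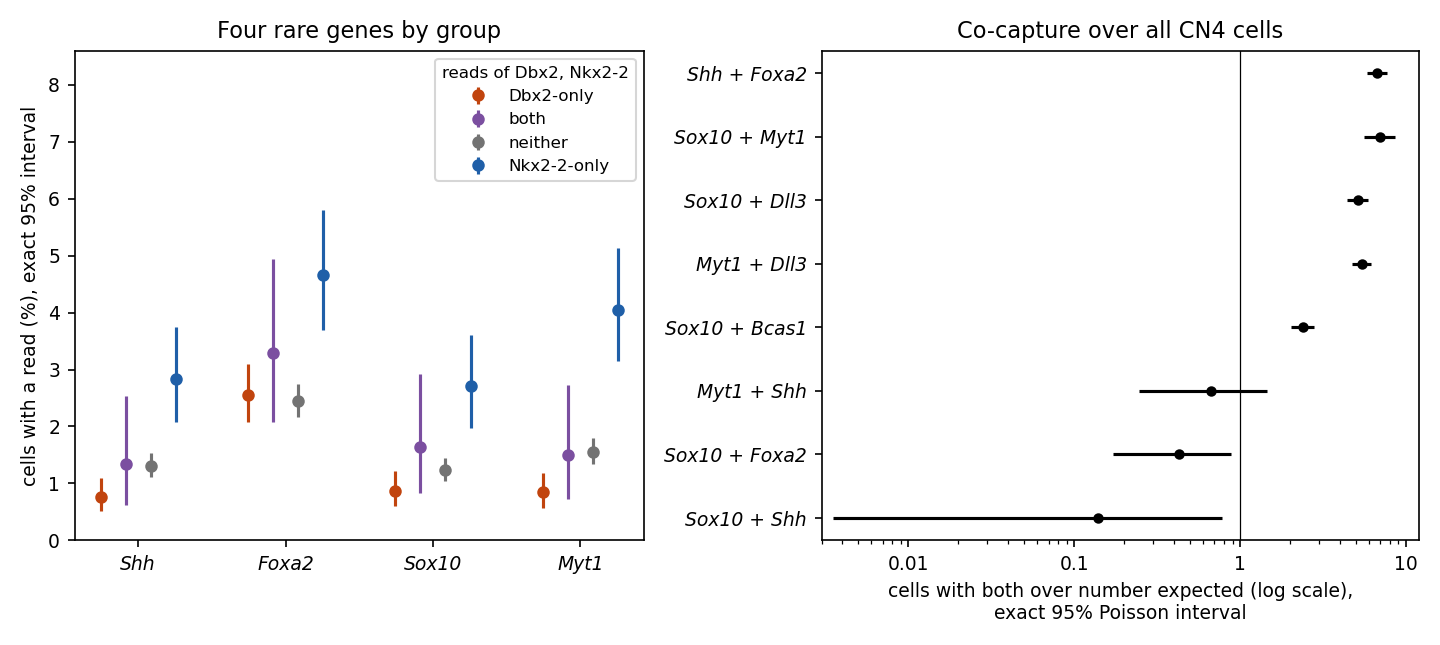
Left, percent of thinned cells with a read of *Shh*, *Foxa2*, *Sox10*, or *Myt1* in the 4 groups of CN4 cells, with exact 95% intervals; the Nkx2-2-only cells are the highest for each gene, and *Myt1* is at 4.05% in them. Right, number of CN4 cells with reads of both genes of a pair over the number expected at like depth, on a log scale with exact 95% intervals, from 6.97 for *Sox10* with *Myt1* to 0.139 for *Sox10* with *Shh*.

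Genes of the intermediate zone, where *Dbx2* belongs, differed little. Of 11 intermediate neural tube factors, 5 were measured, and all 5 had a ratio above 1, where 45.7% of all measured genes did. None reached 1.5-fold, where 1.8% of all measured genes did. Of the 15 alternatives, *Irx3* kept this direction in 15, *Irx1* in 14, *Irx5* in 13, *Pax6* in 12, and *Irx2* in 10. The lowest ratio of *Irx2* was 0.563, with at least 2 reads for capture. Those of *Pax6* (0.766) and *Irx5* (0.973) were found without dividing cells (those with a read of *Mki67*, *Top2a*, or *Hmgb2*). A single such read counted a cell as dividing, so the term is broad, and only 609 Dbx2-only and 265 Nkx2-2-only cells remained. The lowest ratio of *Irx1* was 0.929, without cells that had a read of *Fos*, *Fosb*, or *Dusp1*. *Irx1*, encoding an Iroquois factor, was captured in 10.9% against 8.23% (ratio 1.33), *Irx3* in 6.05% against 4.61% (1.31), *Irx5* in 8.96% against 7.68% (1.17), and *Irx2* in 7.10% against 6.63% (1.07). *Pax6* was at 11.2% and 11.1%, a ratio of 1.00 (0.799 to 1.27 from the opposite ends of both intervals). *Dbx1*, the paralog of *Dbx2*, had a read in 3 Dbx2-only and 2 Nkx2-2-only cells. Of 14 dorsal factors, 5 were measured, and *Pax3*, *Zic1*, *Zic2*, *Zic4*, and *Zic5* had ratios between 0.966 and 1.21.

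Hox genes of the *Hoxc* cluster were captured more often in Dbx2-only cells. All 5 measured *Hoxc* genes had a ratio above 1, as did 45.7% of all measured genes, and 2 were past 1.5-fold, as were 1.16% of all. The median was 1.49, whereas the medians were 1.04 for 7 *Hoxa* genes (0.841 to 1.49, the latter *Hoxa10*), 1.06 for 8 *Hoxb* genes, and 1.00 for 2 *Hoxd* genes. *Hoxc8* was captured in 41.8% of Dbx2-only cells, 28% of Nkx2-2-only cells, and 34.6% of cells with neither gene. The ratio was 1.49 (1.33 to 1.68 from the opposite ends of both intervals). *Hoxc6* was at 15.9% against 10.1% (1.58), *Hoxc9* at 6.81% against 4.48% (1.52), *Hoxc5* at 9.28% against 6.63% (1.4), and *Hoxc4* at 8.28% against 6.76% (1.23). Averaged over draws, *Hoxc6* was at 1.497 and *Hoxc9* at 1.39, and both were at 1.30 in cells matched by depth without thinning. Without dividing cells (609 Dbx2-only and 265 Nkx2-2-only cells remained), *Hoxc9* turned to 0.901 and *Hoxc6* was at 1.26. Annotated genes of this cluster overlap, so their counts are not independent.

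The *Hoxc* cluster lies on chromosome 15 of the GRCm38 genome, as does *Dbx2* (chr15:95623563-95655960, minus strand), and *Hoxc8* is at chr15:102990607-102994111 on the plus strand. The median ratio was 0.987 for 202 genes of chromosome 15 that were captured in at least 10% of cells, and 0.989 for all 5382 such genes. Of 9 neighbors of *Dbx2* and *Nkx2-2*, 6 were measured and none reached 1.5-fold, where 1.8% of all measured genes did. Their ratios ran from 0.850 for *Nell2* to 1.33 for *Tmem117*. *Hoxc8* and *Hoxc6* were captured together in 3670 CN4 cells, 1.46 times the number expected (1.41 to 1.51).

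**Figure D4:**
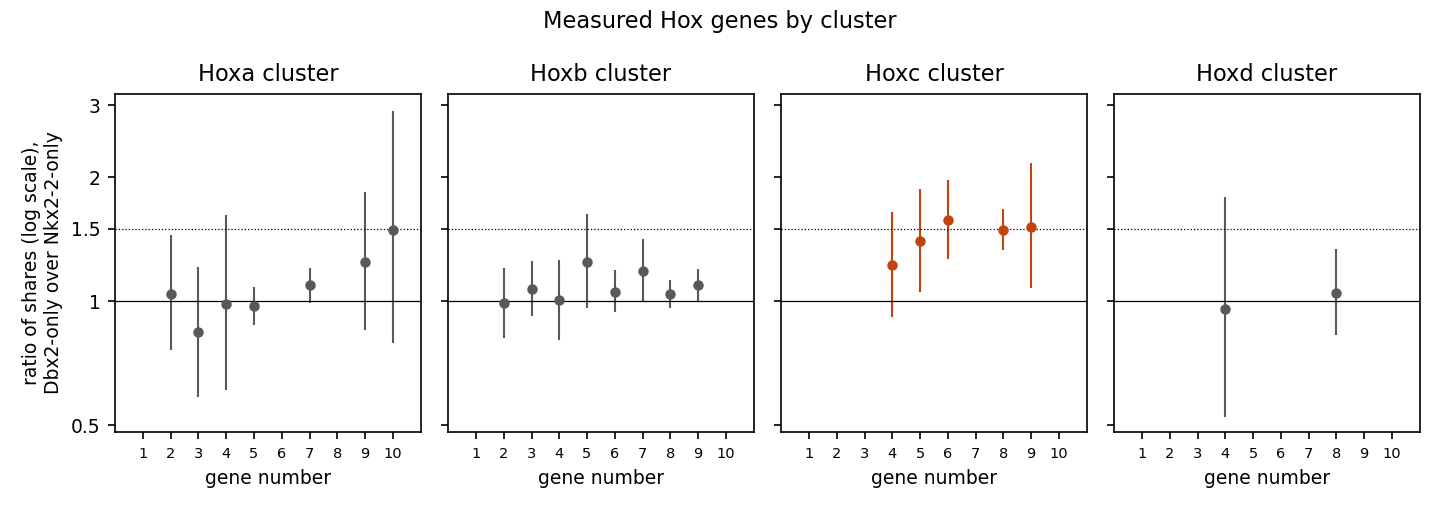
Ratio of the fraction of cells with a read, Dbx2-only over Nkx2-2-only, on a log scale for the measured Hox genes of each cluster by gene number; bars run from the lowest to the highest ratio that both exact 95% intervals allow. The 5 *Hoxc* genes lie between 1.23 and 1.58, and the *Hoxb* genes between 0.988 and 1.25.

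The Notch pathway, in which ligands on one cell restrain differentiation of the next through *Hes* genes, had members on both sides. Of 20 genes, 15 were measured and 11 had a ratio above 1, against 45.7% of all measured genes, with a median log2 ratio of 0.13. Past 1.5-fold were 2 toward Dbx2-only cells and 1 toward Nkx2-2-only cells, as were 1.16% and 0.644% of all measured genes. *Hes5*, the effector that keeps neural progenitors undifferentiated, was captured in 17.1% of Dbx2-only cells (16.0% to 18.4%) and 10.9% of Nkx2-2-only cells (9.46% to 12.6%), a ratio of 1.57 that fell to 1.39 when averaged over draws. *Nrarp*, which the pathway turns on and which dampens it, was at 8.75% (7.87% to 9.70%) against 5.34% (4.30% to 6.55%). The receptor genes *Notch1* and *Notch3* were at 65.0% against 57.9% and at 23.0% against 17.3%. On the ligand side, *Dll3* was 1.90-fold and *Dll1* 1.28-fold higher in Nkx2-2-only cells (6.65% against 8.54% for *Dll1*), and *Jag1* was at 9.81% against 10.8%.

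The 3 Notch genes past 1.5-fold are shown by the 250 bases before their start site (RefSeq, GRCm38.p6), because RBPJ, the DNA-binding partner of Notch, is known to recognize GTGGGAA. Capitals mark this motif on either strand. *Hes5* is at chr4:154960673-154960922 on the plus strand, *Nrarp* at chr2:25180508-25180757 on the plus strand, and *Dll3* at chr7:28301786-28302035 on the minus strand.
Hes5: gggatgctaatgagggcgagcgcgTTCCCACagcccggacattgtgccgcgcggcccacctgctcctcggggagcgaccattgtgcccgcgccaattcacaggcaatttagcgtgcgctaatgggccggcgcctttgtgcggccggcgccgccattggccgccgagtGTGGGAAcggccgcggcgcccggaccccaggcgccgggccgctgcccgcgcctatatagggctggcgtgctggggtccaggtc
Nrarp: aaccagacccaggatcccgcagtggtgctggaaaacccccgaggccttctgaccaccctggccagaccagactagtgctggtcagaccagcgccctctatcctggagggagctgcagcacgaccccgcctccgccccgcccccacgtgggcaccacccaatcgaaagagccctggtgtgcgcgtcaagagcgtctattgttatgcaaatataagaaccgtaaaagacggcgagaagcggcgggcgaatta
Dll3: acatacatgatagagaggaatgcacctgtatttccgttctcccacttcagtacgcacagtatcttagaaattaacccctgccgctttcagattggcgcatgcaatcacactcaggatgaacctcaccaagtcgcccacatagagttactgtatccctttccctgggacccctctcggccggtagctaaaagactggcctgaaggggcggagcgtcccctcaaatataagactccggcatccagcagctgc
The *Hes5* stretch held the motif 2 times, starting 226 and 83 bases before the start site, and the other stretches did not hold these letters. The motif was found in 5.42% of 32851 such stretches.

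Astrocyte genes were mostly captured in a slightly higher fraction of Dbx2-only cells. Of 17 genes, 16 were measured and 14 had a ratio above 1, against 45.7% of all measured genes, with a median log2 ratio of 0.13. *Gfap* passed 1.5-fold toward Dbx2-only cells, as did 1.16% of all measured genes. *Gfap*, encoding an intermediate filament protein of astrocytes, was captured in 3.44% of Dbx2-only cells (2.89% to 4.07%), 1.47% of Nkx2-2-only cells (0.947% to 2.19%), and 2.11% of cells with neither gene, a ratio of 2.34. The glutamate transporter gene *Slc1a2* was at 38.3% against 29.7% (1.29), the gap junction gene *Gja1* at 39.3% against 31.5% (1.25), *Apoe* at 36.7% against 30.5% (1.2), and *S100b* at 7.15% against 5.16% (1.39). *Aqp4*, a marker of mature astrocytes, was rare, with 1.08% against 0.430%. Among 12 NSC genes, all were measured and 9 had a ratio above 1 (45.7% of all measured genes did), and *Hes5* passed 1.5-fold in the draw used (1.16% of all did) but not when averaged (1.39).

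*Fos*, *Fosb*, and *Dusp1* are immediate early genes, which respond quickly to growth factors or to stress such as cell dissociation. A list of 23 such genes was written after these 3 had been seen, and it is no independent evidence of their direction. Of the 18 measured, the same 3 genes were past 1.5-fold (1.16% of all measured genes were), and 13 had a ratio above 1 (45.7% of all measured genes did). The median log2 ratio of the list was 0.19, and it ranged from −0.06 to 0.32 under the alternatives. *Fos* was captured in 35.3% of Dbx2-only cells (33.8% to 36.9%), 21.9% of Nkx2-2-only cells (19.9% to 24%), and 27.1% of cells with neither gene. *Egr1* was at 42.2% against 35.2%, *Junb* at 8.33% against 5.65%, and *Jun* at 52.0% against 51.4%, whereas *Myc* was at 15.9% against 22.3%.

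Ratios of named genes were also computed without the cells that had reads of these immediate early genes. When cells with a read of *Fos*, *Fosb*, or *Dusp1* were left out, 1659 Dbx2-only and 954 Nkx2-2-only cells remained, and the ratio fell to 1.4 for *Abca1*, 1.39 for *Cxcr4*, 1.34 for *Foxb1*, 1.18 for *Pdk1*, and 1.10 for *Gfap*. In the same cells, *Tst* was at 2.06, *Nrarp* at 1.77, *Kcnn2* at 1.61, and *AI464131* at 1.54. On the Nkx2-2-only side, the ratio of Dbx2-only over Nkx2-2-only cells moved toward 1 for *Bend3* (from 0.625 to 0.890) and *Sox13* (from 0.633 to 0.885), whereas *Bmp7* was at 0.583 and *Nrp2* at 0.623. Then 132 genes passed 1.5-fold toward Dbx2-only cells and 122 toward Nkx2-2-only cells, of which 24 and 17 were shared with the 117 and 65. The ratios without these cells rested on fewer cells and on a single draw. Averaged over draws in all cells, *Pdk1* was already at 1.41 and *Bend3* at 0.681. The part of the immediate early genes in these differences was not tested.

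**Figure D5:**
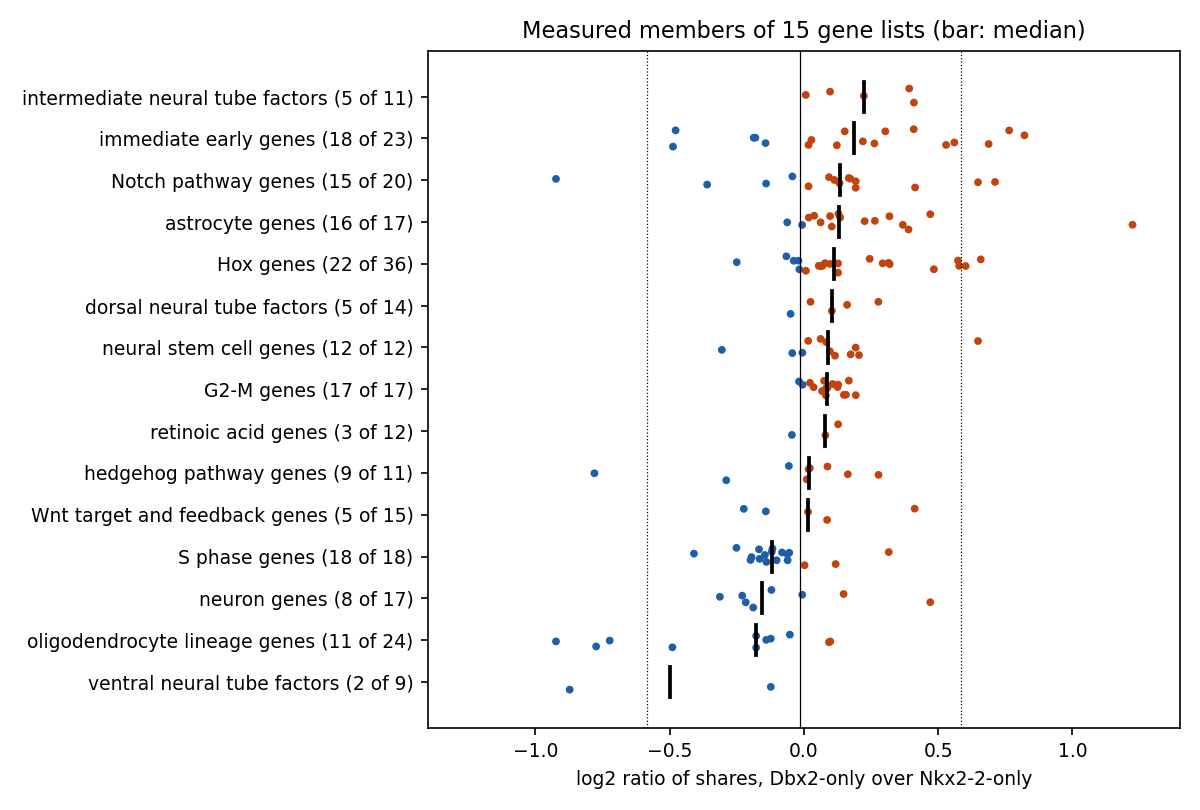
Log2 ratio of the fraction of cells with a read, Dbx2-only over Nkx2-2-only, for the measured members of 15 gene lists; each dot is a gene (orange above 0, blue below 0), thick bars are medians, the thin line is the median of all measured genes (−0.01), and dotted lines mark 1.5-fold. The oligodendrocyte lineage list lies to the left with a median of −0.18, and the intermediate list to the right with 0.22.

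Cell cycle genes differed by small amounts. Of all 10093 measured genes, 4617 had a ratio above 1 and 5465 below 1. Of 17 G2-M genes, 15 had a ratio above 1 with a median log2 ratio of 0.09, and of 18 S phase genes, 15 had a ratio below 1 with a median of −0.12. None was past 1.5-fold on either list, where 1.8% of all measured genes were. *Mki67* was captured in 50.6% against 47.7%, *Top2a* in 58.0% against 55.3%, *Pcna* in 50.9% against 55.3%, and *Ung* in 11.1% against 14.8%. *Ccnd1*, encoding the cyclin of G1 that Wnt signaling and mitogens raise, was at 70.0% (68.5% to 71.4%) in Dbx2-only cells and 81.7% (79.7% to 83.5%) in Nkx2-2-only cells. With 70.0% in Dbx2-only cells, no fraction of Nkx2-2-only cells could be 1.5-fold higher. By pooled RPM, the ratio of *Ccnd1*, Dbx2-only over Nkx2-2-only, was 0.689.

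In the remaining lists, few genes passed 1.5-fold, where 1.8% of all measured genes did in either direction. Of 15 Wnt target and feedback genes, 5 were measured and none passed 1.5-fold, with *Nkd1* at 11.1% against 8.35%, *Axin2* at 22.2% against 20.9%, *Znrf3* at 20.4% against 20.2%, *Lgr5* at 12.7% against 14.1%, and *Ccnd1* as given above. Of 11 hedgehog pathway genes, 9 were measured and *Cdon*, encoding a coreceptor of Sonic hedgehog, passed with 2.18% against 3.75%, as did 0.644% of all measured genes. *Ptch1*, the receptor and target gene, was at 25.1% against 26.0%, and *Gli1* was at 0.578% against 0.799%. Of 12 retinoic acid genes, 3 were measured, with *Rarb* at 7.05% against 6.45%. Of 17 neuron genes, 8 were measured and none passed. Of these 8, 6 had a ratio below 1, as did 5465 of all 10093 measured genes, with a median log2 ratio of −0.15. *Map2* was at 68.7% against 74.7%, where Nkx2-2-only cells could not be 1.5-fold higher, and *Dcx* was at 2.08% against 2.58%. Of 13 mesenchymal and neural crest genes, *Prrx1* was measured, at 20.0% against 16.6%, and of 7 epiblast genes, none was.

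XN1 offered the same comparison in a second library, with 340 Dbx2-only and 1618 Nkx2-2-only thinned cells, although in another medium and with few *Dbx2* cells. Of the 12 genes named on the Dbx2-only side of CN4, 9 were measured in XN1 and 6 had a higher fraction in the Dbx2-only cells, where 48.3% of all measured genes did. *Abca1* was at 23.2% (18.8% to 28.1%) against 16.4% (14.6% to 18.3%), and *Pdk1* at 11.5% (8.29% to 15.3%) against 6.18% (5.06% to 7.47%). *Nrarp* went the other way, with 2.94% against 4.33%, and *Foxb1* had a read in none of the Dbx2-only and 4 of the Nkx2-2-only cells. Of genes named from the lists, *Gfap* was at 5.0% (2.94% to 7.88%) against 1.30% (0.805% to 1.98%), and *Fos* at 25.6% (21% to 30.6%) against 14.9% (13.2% to 16.7%), both higher in Dbx2-only cells as in CN4. *Hes5* was at 2.65% against 2.41%, and the *Hoxc* genes had a read in at most 1 cell of either group. Of the 12 genes named on the Nkx2-2-only side, 10 were measured and 8 had a higher fraction in the Nkx2-2-only cells, where 51.6% of all measured genes did. Their ratios of Dbx2-only over Nkx2-2-only cells ran from 0.760 for *Col18a1* to 0.914 for *Trp53i11*. Except for *Trp53i11*, the intervals of both groups overlapped for each of these 8 genes. On the Dbx2-only side, they also overlapped for *Dusp1*, *Fosb*, *Kcnn2*, and *Fam20c*.

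In XN1 itself, 239 of 10128 measured genes (2.36%) were at least 1.5-fold higher in Dbx2-only cells and 478 (4.72%) in Nkx2-2-only cells. Over all genes past 1.5-fold in CN4, the fraction with the same direction in XN1 was near that of all genes. Of the 117 genes, 75 were measured in XN1 and 39 were higher in Dbx2-only cells (52%), and of the 65 genes, 45 were measured and 26 were higher in Nkx2-2-only cells (57.8%). *Sox10*, *Myt1*, *Shh*, and *Foxa2* had reads in at most 5 cells of either group in XN1, too few for a comparison of these genes. *Bcas1* was at 7.06% in Dbx2-only and 5.87% in Nkx2-2-only cells of XN1, opposite to CN4, with overlapping intervals.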

How the data were processed

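For CN4, XN1, and XN4, the authors deposited counts of reads per gene and cell, not of molecular identifiers, which come from the BD Rhapsody WTA Analysis Pipeline (1.12.1), GRCm38, and GENCODE M19. Natural log values deposited by the authors, scaled to 10000 reads per cell without ribosomal protein and mitochondrial genes (Seurat 4.3.0 is named in the submitters' processing notes), were used to mark the fewer CN4 cells of that table. The KN1 line was not used here. The CN4 table held 180825519 reads of 25685 genes, and fractions have exact 95% intervals for counting error.

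Groups were formed from all reads of a cell. Cells with fewer than 3600 reads (35 Dbx2-only and 31 Nkx2-2-only) were left out of thinning. The ratio of fractions was computed with Python 3.11.15, numpy 2.4.6, and scipy 1.17.1, and a fraction of 0 was set to 3 cells for ratios. The procedures were tested on simulated data. Reads of overlapping genes may be shared, since the strand setting is not given in the sources used here, and no doublet caller was run. Coordinates are from GENCODE M21.

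Named genes are the 12 with the largest ratio in each direction among genes captured in at least 5% of thinned cells whose pooled RPM values point the same way, up to 4 members of each list past 1.5-fold in each direction, and the ventral, intermediate, and oligodendrocyte lists. Some genes that this rule names are not reported here. Members and lists were chosen with earlier results of these data known. Other list members and gene pairs were named after their values were seen. The alternatives covered the depth and draw of thinning, matching without thinning, the reads required, the filter, and sets of cells. Averaging over draws and leaving out cells with *Shh* or *Foxa2*, with *Fos*, *Fosb*, or *Dusp1*, or with shared names were added after seeing the data.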

Additional observations from a re-analysis of the deposited data

How the results depend on the processing

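The numbers of genes past 1.5-fold depended on the processing. In place of 117 genes toward Dbx2-only and 65 toward Nkx2-2-only cells, there were 359 and 280 with at least 2 reads of the chosen gene, 352 and 282 with a filter of 0.5%, 35 and 16 with a filter of 5%, 687 and 529 in the cells of the normalized table, 693 and 704 without cells that had a read of *Mki67*, *Top2a*, or *Hmgb2*, 62 and 41 by pooled RPM, and 66 and 31 when averaged over draws. Fewer cells were compared with 2 reads of the chosen gene (488 Nkx2-2-only cells), in the normalized table (277), and without dividing cells (265). Without cells that had a *Fos*, *Fosb*, or *Dusp1* read, the number toward Nkx2-2-only cells was 122. Without the cells whose names were shared with other lines, it was 114 and 60.

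The median log2 ratio of the oligodendrocyte lineage list was −0.49 with the filter of 0.5% and −0.47 without the dividing cells. That of the retinoic acid list was 0.41 without the dividing cells. The other 248 of 251 list medians moved less than their counting limits. These limits are medians of the limits of single genes, not the error of a list median, so they do not show that a median was stable. Some medians changed sign within them, such as that of the hedgehog list (−0.24 to 0.13) and that of the immediate early genes (−0.06 to 0.32). Over all settings, the median of the oligodendrocyte lineage list ranged from −0.49 to −0.08. The co-capture of *Dbx2* and *Nkx2-2* was 1.30 times the expected number with at least 2 reads. Of 778 ratios of named genes under the alternatives, 712 were the same within their counting intervals, which are wide in the smaller sets of cells. The alternatives reuse the same cells, so this number does not measure stability. Another 60 moved, and 6 of genes past 1.5-fold changed direction. The latter were *Fam20c* (0.984 with at least 2 reads for capture and 0.798 without dividing cells), *Kcnd2* (1.003), *Cdr2* (1.42), and *Pqlc1* (1.11) in the cells of the normalized table, and *Hoxc9* (0.901) without dividing cells. The cause was not tested. No paired analysis was possible because each line is 1 library. For a group of 1628 cells, a gene without a read allows a fraction of up to 0.184%.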

Other observations

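The following genes past 1.5-fold were named after their values were seen. On the Dbx2-only side, *Hepacam*, encoding an adhesion protein of astrocytes, was captured in 5.78% of Dbx2-only cells and 2.46% of Nkx2-2-only cells (ratio 2.35, or 1.63 when averaged over draws). *Slc25a42*, a mitochondrial carrier gene, was at 3.58% against 1.35% (2.65, or 2.28 when averaged), and *Slc30a10*, encoding a manganese exporter, at 4.55% against 2.03% (2.24, or 2.00 when averaged). *S1pr1*, encoding a receptor of sphingosine 1-phosphate, was at 12.3% against 7.74%, and *Vcam1*, encoding an adhesion protein of quiescent neural stem cells, at 7.73% against 4.91%.

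On the Nkx2-2-only side, *Plekhh1* was captured in 1.52% of Dbx2-only cells and 3.69% of Nkx2-2-only cells, and *Neto1*, encoding an auxiliary subunit of glutamate receptors, in 4.10% against 6.76%. *Grik3*, encoding a kainate receptor subunit, was at 3.36% against 6.33%. All 3 of these genes were also past 1.5-fold when averaged over draws.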
